A study of Mus musculus with 18 samples.

Results

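A set of 7 genes of the Trim cluster on mouse chromosome 7 are described here in 2 mouse lung cancer cell lines: Trim30a, Trim30b, Trim30c, Trim30d, Trim12a, Trim12c and Trim34a. They are 7 of the 36047 genes with a listed transcript, and they were chosen by symbol, with their values in UN-SCC679 cells carrying the sh3 construct already known. Their values in that comparison are therefore a description without a test. The other comparisons share no library with it and are tested. Earlier results of these data were known when the genes were chosen, so those p-values may not be free of that choice. The study asked how gene expression differs when DSTYK, a dual serine/threonine and tyrosine kinase, is lowered or raised. RNA was sequenced from 18 libraries, 3 in each of 6 groups.

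LLC (Lewis lung carcinoma) is a C57BL/6 line labelled lung adenocarcinoma, and UN-SCC679 is an A/J line labelled lung squamous carcinoma. The groups were LLC with sh3 in the TPLKO vector against LLC with empty TPLKO, UN-SCC679 with sh3 in TPLKO against UN-SCC679 with empty TPLKO, and UN-SCC679 with wild-type DSTYK in pLENTI6 (OE_DSTYKwt) against UN-SCC679 with empty pLENTI6. All TPLKO groups, empty vector included, had doxycycline, and the pLENTI6 groups are labelled as having no treatment. The labels name only 1 hairpin construct, sh3, so effects of the hairpin beyond Dstyk cannot be told apart from those of Dstyk. Whether replicates came from separate cultures is not labelled, and p-values therefore cover only the spread between libraries, which may be technical. Libraries held between 40525385 and 46528071 estimated counts. Dstyk averaged 23.1 ± 0.79 CPM in LLC sh3 and 42.8 ± 2.07 CPM in LLC empty TPLKO, 26.2 ± 0.869 CPM in UN-SCC679 sh3 and 36.9 ± 0.931 CPM in UN-SCC679 empty TPLKO, and 37.8 ± 0.774 CPM in OE_DSTYKwt and 31 ± 1.39 CPM in empty pLENTI6 (SD, n = 3 each). CPM is the count relative to library size after TMM scaling within an experiment. In edgeR's quasi-likelihood test Dstyk was 1.85-fold lower in LLC sh3 (adjusted p = 9.81e-10), 1.41-fold lower in UN-SCC679 sh3 (adjusted p = 5.61e-07) and 1.22-fold higher in OE_DSTYKwt (adjusted p = 0.000641).

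TRIM proteins carry a RING domain, which makes many of them ubiquitin ligases, then a B-box and a coiled coil, and in this family often a SPRY domain that binds the target. Many TRIM genes are induced by interferon, whose receptors signal through JAK kinases to STAT proteins, which with IRF9 bind interferon-stimulated response elements. The mouse cluster holds copies related to the human antiviral factor TRIM5, among them the Trim12 and Trim30 genes. Mouse Trim30a is known to be induced by Toll-like receptor signalling and to dampen NF-kB activation through the adaptors TAB2 and TAB3. Mouse Trim30d is known for restricting tick-borne flaviviruses. Mouse Trim12c is known to act with TRAF6 in innate signalling, and Trim34a is the counterpart of human TRIM34.

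On GRCm38, all 7 genes lie on chromosome 7. Trim34a (ENSMUSG00000056144.14, plus strand) runs from 104244457 to 104262234. Trim12a (ENSMUSG00000066258.13, minus strand) follows from 104299894 to 104315466 and Trim12c (ENSMUSG00000057143.15, minus strand) from 104338754 to 104353362. The Trim30 genes are all on the minus strand. Trim30b (ENSMUSG00000052749.9) runs from 104355382 to 104369884, Trim30c (ENSMUSG00000078616.2) from 104382065 to 104400837, Trim30a (ENSMUSG00000030921.17) from 104409025 to 104465193, and Trim30d (ENSMUSG00000057596.13) from 104470014 to 104507849. Trim5 and Trim34b, which are not among the 7, lie between Trim34a and Trim12c and share sequence with them.

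Because the genes are near copies, how far their reads can be told apart comes before the values. The coding sequences of Trim30a and Trim30d were 89.8% identical over 1038 aligned bases, and those of Trim12a and Trim12c 96.4% over 891. The Trim30d and Trim12a coding sequences used were the shorter of each pair, so the alignments covered 69.8% and 59.8% of the longer sequence. The longest identical stretch of the Trim30a and Trim30d coding sequences was 275 bases, longer than a 75-base read. Of 673 aligned 75-base coding windows, 188 had no difference between Trim30a and Trim30d, and the median was 5 differences. A window without a difference, whose reads cannot be given to either gene, is at chr7:104411595-104411669 in Trim30a and chr7:104472561-104472635 in Trim30d (GRCm38, minus strand).
Trim30a: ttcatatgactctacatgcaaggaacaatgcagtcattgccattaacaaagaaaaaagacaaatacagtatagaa
Trim30d: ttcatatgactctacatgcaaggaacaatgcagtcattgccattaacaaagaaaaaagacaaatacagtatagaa
The window with the most differences is at chr7:104429133-104429207 in Trim30a and chr7:104483344-104483418 in Trim30d. The 16 positions in capitals differ. These are reference sequences, and how far the A/J line UN-SCC679 departs from them was not tested, so counts of UN-SCC679 could be divided between near copies in another way than those of LLC.
Trim30a: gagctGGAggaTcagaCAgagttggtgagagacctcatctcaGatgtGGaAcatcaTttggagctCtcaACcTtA
Trim30d: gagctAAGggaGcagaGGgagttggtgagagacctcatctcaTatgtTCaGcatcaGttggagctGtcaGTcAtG

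Over whole transcripts the genes were better separated than over coding sequence alone. Of the 75-base windows of the main Trim30a transcript (3771 bases), 94.6% were found in no other gene, and 201 windows (5.44%) were shared with Trim30d. In the Trim30d transcripts of 3282 and 1904 bases, 93.5% and 88.7% were in no other gene. The single Trim30c transcript had 100% of its windows to itself, and the longest Trim30b transcript 99.9%. The Trim12c transcripts of 3740 and 2484 bases had 83.8% and 77.9%, with 12.9% and 16.5% of windows shared with Trim5. The 3 coding Trim12a transcripts had between 80.5% and 86.5%. A Trim12a transcript of 3730 bases annotated as a retained intron, which held most of the gene's counts, had 98.7%. Among transcripts with at least 100 estimated counts over the 18 libraries, those of Trim34a had the least, 60.1% to 68.8%, because between 31.2% and 39.9% of its windows also occur in Trim34b. Between 2.96% and 3.66% of windows were particular to a single Trim34a transcript, so its split into isoforms is unresolved, as is that of Trim12c, where the shorter transcript had 0.373% to itself.

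**Figure D1:**
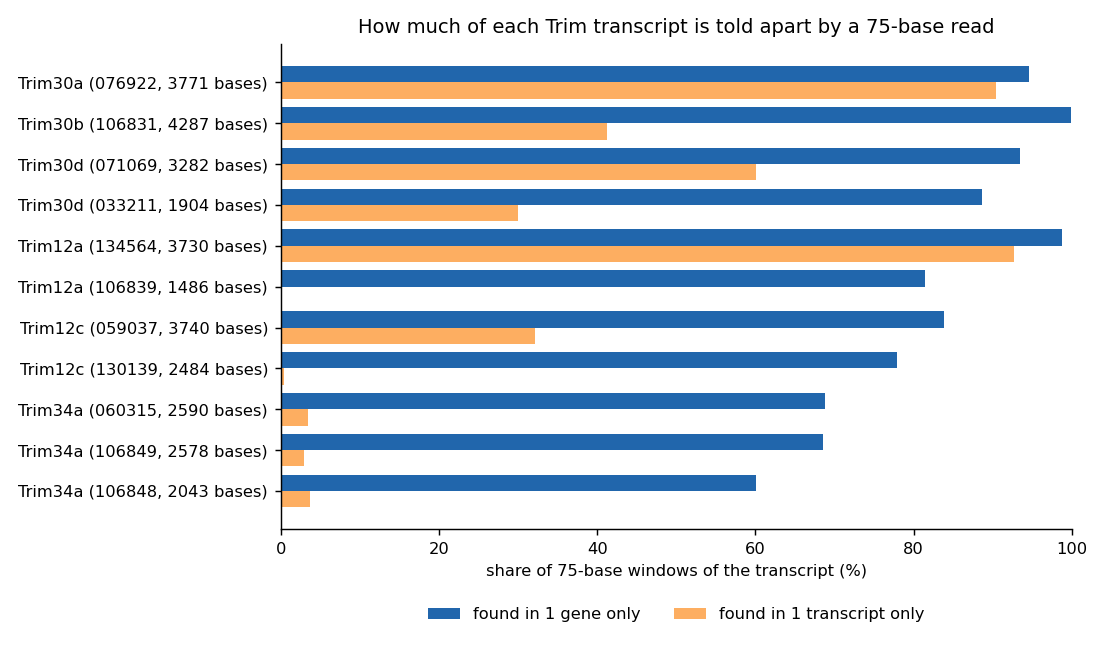
Share of 75-base windows of each transcript (%, horizontal axis) found in 1 gene only (blue) or in 1 transcript only (orange), for the transcripts of the 7 genes with at least 100 estimated counts over 18 libraries; the labels give the last 6 digits of the transcript ID. Trim30a and Trim30d lie at 88.7% or more for the gene, and Trim34a between 60.1% and 68.8%.

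In UN-SCC679 cells, the sh3 libraries were high in Trim30a and Trim30d, while the empty TPLKO libraries were low in Trim30a and at 0 in Trim30d. Trim30a had 1817.1, 1832.6 and 1861.3 estimated counts in the sh3 libraries, against 50, 75.0 and 55.7 in the empty TPLKO libraries. Every sh3 library thus stood far above every empty TPLKO library. As CPM these were 40.7, 42.7 and 45.3 in sh3 and 1.21, 1.66 and 1.4 in empty TPLKO, a ratio of means of 30.1. On TPM, which also takes effective length into account, the means were 21.2 ± 2.24 in sh3 and 0.871 ± 0.221 in empty TPLKO (SD, n = 3 each). The main Trim30a transcript alone held 1801.0, 1822.5 and 1825.4 of the counts in sh3 and 43.2, 72.0 and 55.7 in empty TPLKO.

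Trim30d had 1004.8, 938.1 and 915.5 estimated counts in the UN-SCC679 sh3 libraries, against 0 in all 3 empty TPLKO libraries. Both of its long coding transcripts contributed. The transcript of 3282 bases had 617.3, 651.4 and 626.1 counts in sh3, and that of 1904 bases had 376.1, 286.7 and 289.3, against 0 for both in empty TPLKO. Set against a floor of 3 counts per empty TPLKO library, a mean of 0.0698 CPM, the sh3 mean of 22.2 ± 0.327 CPM was at least 318-fold higher. This and the intervals implied by counts cover counting error only. Counts from shared windows could be moved between Trim30a and Trim30d by the assignment of reads, but their summed level does not depend on it. Trim30a, Trim30b, Trim30c and Trim30d summed to 65.6 ± 2.34 CPM in sh3 and 1.74 ± 0.262 CPM in empty TPLKO (SD, n = 3 each).

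The other members differed far less between these arms. Trim12c, the TRAF6 partner, had 29.3, 29.7 and 27.7 CPM in UN-SCC679 sh3, against 18.7, 18.9 and 19.1 CPM in empty TPLKO. The arms did not overlap, with a log2 difference of 0.61. Trim30b had 0.492, 0.443 and 0.632 CPM in sh3, against 0.29, 0.354 and 0.3 CPM in empty TPLKO, again without overlap but at no more than 25.8 counts in a library. Trim30c had 1.0, 0 and 3.0 counts in sh3 and 0 in every empty TPLKO library, so no fold is given. Trim12a had 0.425, 0.21 and 0.827 CPM in sh3, against 1.4, 0.687 and 0.549 CPM in empty TPLKO, and the arms overlapped. Trim34a averaged 2.18 ± 0.251 CPM in sh3 and 1.94 ± 0.21 CPM in empty TPLKO (SD, n = 3 each), and the arms overlapped too. In this comparison 31.8% of the 14271 genes tested were called higher and 32.0% lower, and 34.4% lay higher without overlap of the arms. Since the members were picked with this contrast known, nothing is read from their number.

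**Figure D2:**
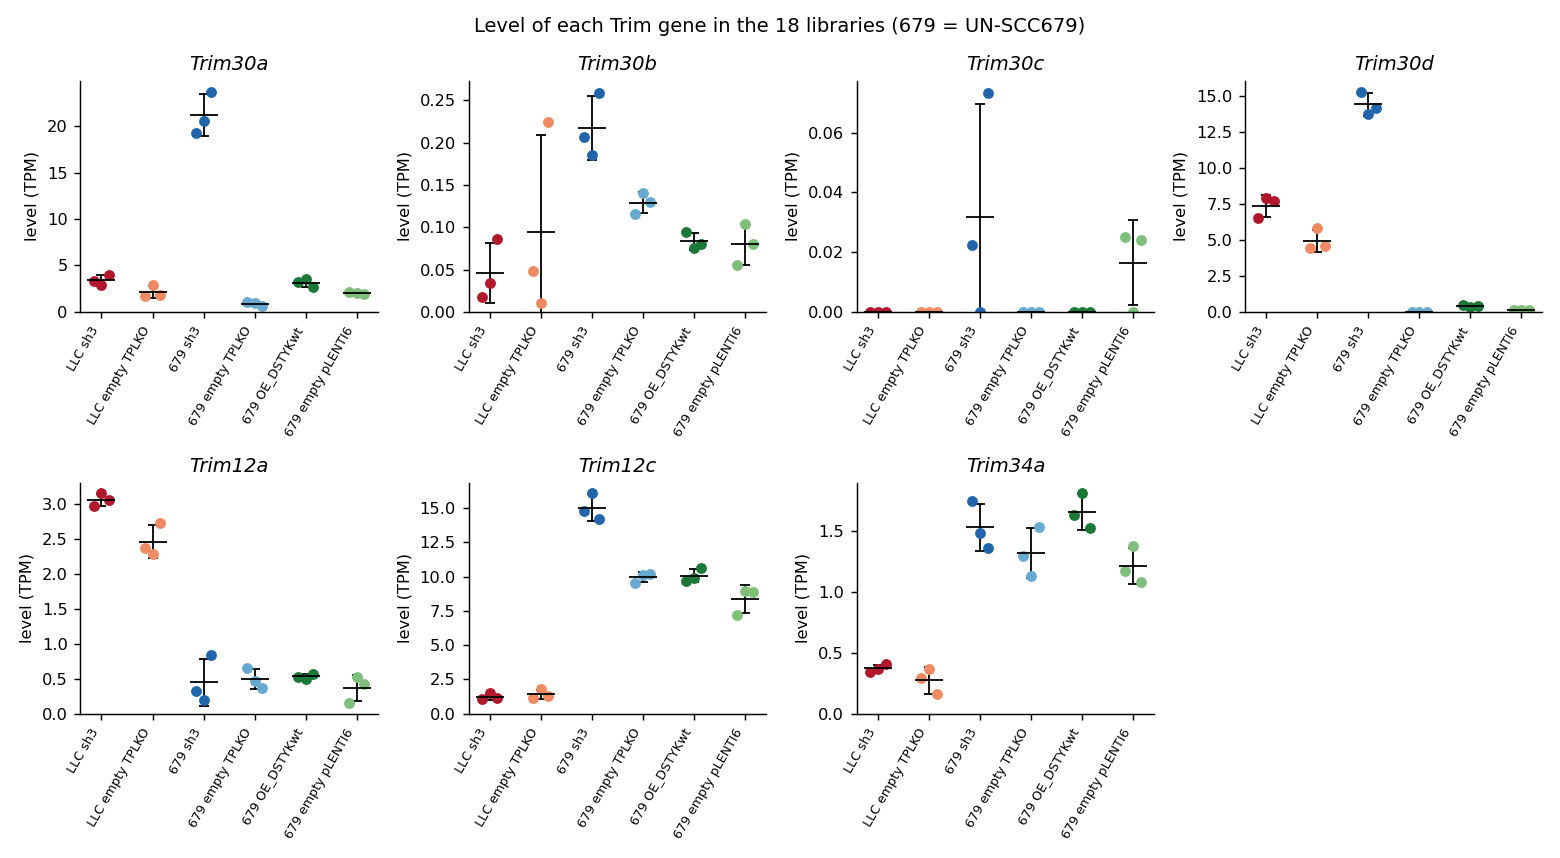
Level (TPM, vertical axis, own scale in each panel) of the 7 genes in the 18 libraries. Points are libraries, the horizontal mark is the mean of 3 and the bar is 1 SD. Trim30a and Trim30d are highest in UN-SCC679 sh3 (means of 21.2 and 14.4), and Trim30d is at 0 in UN-SCC679 empty TPLKO.

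In LLC cells, Trim30a and Trim30d were also higher in sh3, by a smaller amount. Trim30a had 5.66, 6.57 and 6.66 CPM in LLC sh3, against 3.8, 4.85 and 3.87 CPM in LLC empty TPLKO. On CPM the arms did not overlap, and Trim30a was 1.51-fold higher (log2 fold change 0.60, SE 0.12, edgeR quasi-likelihood test, adjusted p = 0.000571). On TPM they overlapped, at 3.29, 2.85 and 4 in LLC sh3 and 1.67, 2.89 and 1.81 in LLC empty TPLKO. The main Trim30a transcript alone had 252.3, 306.6 and 286.6 estimated counts in LLC sh3, against 172.7, 191.6 and 162.5 in LLC empty TPLKO. A retained-intron transcript of 314 bases had 5.0 counts in LLC empty TPLKO replicate 2 and 0 in LLC sh3 replicate 2. Its part in the TPM overlap was not tested. Trim30d had 10.3, 12.4 and 12 CPM in LLC sh3, against 7.8, 9.04 and 7.9 CPM in LLC empty TPLKO. It was 1.4-fold higher (log2 fold change 0.49, SE 0.089, adjusted p = 0.000261 in the same test), and again no sh3 library fell within the range of the empty TPLKO libraries. Both passed in all 6 fits that left out a library. The Trim30 genes summed to 18 ± 1.72 CPM in LLC sh3 and 12.5 ± 1.21 CPM in LLC empty TPLKO (SD, n = 3 each).

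Trim12a was called higher in LLC sh3 too, but not over its protein-coding transcripts alone. The gene had 5.29, 6.42 and 5.71 CPM in LLC sh3, against 3.91, 3.45 and 4.62 CPM in LLC empty TPLKO (log2 fold change 0.54, SE 0.13, edgeR adjusted p = 0.00174). Most of its counts lay on a transcript annotated as a retained intron, with 211.2, 277.2 and 233.4 estimated counts in LLC sh3 and 149.4, 115.8 and 154.7 in LLC empty TPLKO. The coding transcript of 1486 bases had 0, 19.3 and 15.3 counts in LLC sh3 and 23.4, 15.8 and 36.0 in LLC empty TPLKO. That of 1389 bases had 21.5, 0 and 0 counts in LLC sh3 and 0 in every LLC empty TPLKO library. As 0.0708% of the windows of the 1486-base transcript are its own, counts cannot be divided between these coding transcripts. Over protein-coding transcripts alone, a choice made after these values were seen, the log2 fold change was -0.40 with an adjusted p of 0.355. The call was also lost when all 18 libraries were fitted together (adjusted p = 0.0992).

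The remaining members gave no call in LLC. Trim12c averaged 2.45 ± 0.305 CPM in LLC sh3 and 2.73 ± 0.49 CPM in LLC empty TPLKO (SD, n = 3 each; log2 fold change -0.15, SE 0.17, edgeR adjusted p = 0.441). Trim34a averaged 0.527 ± 0.0775 CPM in LLC sh3 and 0.391 ± 0.19 CPM in LLC empty TPLKO (log2 fold change 0.43, SE 0.4, edgeR adjusted p = 0.355). Its log2 fold change was 0.09 without LLC empty TPLKO replicate 3 and 0.78 without LLC empty TPLKO replicate 2. Trim30b, at 0.118 CPM in LLC sh3 and 0.116 CPM in LLC empty TPLKO, and Trim30c, listed at 0 in all 6 LLC libraries, did not pass the filter on low counts. Of the 7 members, 5 passed the filter and 3 of these were called higher, where 36.2% of the 13767 genes tested were called higher and 36.4% lower, and 38.0% lay higher without overlap.

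With wild-type DSTYK raised in UN-SCC679, Trim30a and, by less, Trim12c were higher than in empty pLENTI6. Trim30a had 6.72, 6.5 and 5.75 CPM in OE_DSTYKwt, against 3.77, 4.16 and 3.63 CPM in empty pLENTI6. It was 1.64-fold higher (log2 fold change 0.71, SE 0.089, edgeR adjusted p = 0.000329) without overlap of the arms. Trim30d was low in both arms, at 26.4, 22.0 and 20.8 estimated counts in OE_DSTYKwt and 7.5, 6.4 and 8.5 in empty pLENTI6. Its log2 fold change was 1.64 (SE 0.29, edgeR adjusted p = 0.00232). Its 3 OE_DSTYKwt libraries and no empty pLENTI6 library reached the filter's level, so it was tested only because it was higher there, and this call supports nothing further.

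Trim12c was 1.18-fold higher in OE_DSTYKwt, with 17.5, 18.2 and 19.5 CPM against 14.5, 16.5 and 15.9 CPM in empty pLENTI6 (log2 fold change 0.23, SE 0.062, edgeR adjusted p = 0.0192). The arms did not overlap. This call was lost without OE_DSTYKwt replicate 2 (adjusted p = 0.0538), without OE_DSTYKwt replicate 3 (adjusted p = 0.0839) and with limma on log2(TPM + 1) (adjusted p = 0.0816). Trim34a averaged 2.15 ± 0.178 CPM in OE_DSTYKwt and 1.61 ± 0.181 CPM in empty pLENTI6 (SD, n = 3 each). Its adjusted p of 0.0501 (log2 fold change 0.41, SE 0.14, edgeR) lay at the threshold, and it passed without empty pLENTI6 replicate 2 (adjusted p = 0.0419). Trim34a and Trim34b share windows, and their sum was 3.92 ± 0.114 CPM in OE_DSTYKwt and 3.03 ± 0.122 CPM in empty pLENTI6. Trim12a averaged 0.861 ± 0.183 CPM in OE_DSTYKwt and 0.634 ± 0.289 CPM in empty pLENTI6 (edgeR adjusted p = 0.381). Trim30b and Trim30c did not pass the filter. Of the 7 members, 5 passed and 3 were called higher, or 2 of the 4 others without Trim30d, where 14.6% of the 13975 genes tested were called higher and 15.2% lower. Over all genes tested, 22.8% lay higher without overlap of the arms.

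In UN-SCC679, the ratio of Trim30a means was 30.1 for sh3 over empty TPLKO and 1.64 for OE_DSTYKwt over empty pLENTI6. The difference between these effects was not tested, since the first chose the gene. The empty-vector levels stood apart as well. UN-SCC679 empty TPLKO had 0.871 ± 0.221 TPM of Trim30a and UN-SCC679 empty pLENTI6 had 2.04 ± 0.108 TPM (SD, n = 3 each). These arms differ in vector and doxycycline, and belong to separate experiments with differently named libraries. Whether the cells were otherwise the same is not labelled. Their summed fibroblast markers also stood apart, at 231 to 234 TPM in empty TPLKO and 49.3 to 56.7 TPM in empty pLENTI6.

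The members fell into different orders in the lines. On TPM, which compares genes per length, Trim30a in UN-SCC679 sh3 (21.2) stood above LLC sh3 (3.38), OE_DSTYKwt (3.13), LLC empty TPLKO (2.12) and UN-SCC679 empty pLENTI6 (2.04). The last 4 groups each overlapped the next in this order, and UN-SCC679 empty TPLKO was lowest without overlap. Trim30d ran from 14.4 TPM in UN-SCC679 sh3 through 7.38 in LLC sh3, 4.96 in LLC empty TPLKO, 0.415 in OE_DSTYKwt and 0.123 in empty pLENTI6 to 0 in UN-SCC679 empty TPLKO, and no neighbouring groups overlapped. Per library, the ratio of Trim30d to Trim30a TPM was 1.98, 2.78 and 1.93 in LLC sh3 and 2.67, 2.02 and 2.54 in LLC empty TPLKO. It was 0.792, 0.673 and 0.6 in UN-SCC679 sh3 and 0 in UN-SCC679 empty TPLKO, and 0.145, 0.103 and 0.156 in OE_DSTYKwt against 0.0675, 0.0499 and 0.0635 in empty pLENTI6. Trim30d was thus the higher of the pair in every LLC library and Trim30a in every UN-SCC679 library.

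Trim12a and Trim12c were opposite between the lines. Trim12c had group means of 15, 10.1, 9.95 and 8.36 TPM in UN-SCC679 and of 1.4 and 1.23 TPM in LLC. Trim12a had group means of 3.07 and 2.47 TPM in LLC and of 0.366 to 0.533 TPM in UN-SCC679. Its retained-intron transcript held 90.8% of its counts in LLC sh3, 81.6% in LLC empty TPLKO and 60% to 85.8% in the UN-SCC679 groups. The Trim12c transcripts are coding, so these levels do not compare like transcripts. Trim34a lay at 1.21 to 1.65 TPM in UN-SCC679 and at 0.37 and 0.271 TPM in LLC. Its near copy Trim34b was listed at 0 in all 6 LLC libraries and at group means of 1.38 to 2.07 TPM in UN-SCC679. Trim30b reached at most 0.217 TPM and Trim30c at most 0.0319 TPM as a group mean. The lines differ in strain, and reads of both were matched to transcripts of the mm10 reference, so line, strain and the fit of the reads to the reference cannot be told apart in these levels. In these bulk samples, fewer cells that express a gene and less of its RNA per cell cannot be told apart either.

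The 250 bases before the annotated start are shown for Trim30a, Trim30d and Trim12c, which hold a match to the interferon-stimulated response element core, and for Trim30c, which does not. A pair of motifs was searched on both strands in the 300-base RefSeq promoters of GRCm38.p6 (250 bases before to 50 after the start). The response element core was GAAA, any 2 bases and GAAA again, which reads TTTC, 2 bases and TTTC on the other strand. The STAT site core was TTC, any 3 bases and GAA, and the motifs were matched independently of each other. All 7 members had a RefSeq promoter. Matches to the response element core are in capitals.
Trim30a (chr7:104465194-104465443, minus strand): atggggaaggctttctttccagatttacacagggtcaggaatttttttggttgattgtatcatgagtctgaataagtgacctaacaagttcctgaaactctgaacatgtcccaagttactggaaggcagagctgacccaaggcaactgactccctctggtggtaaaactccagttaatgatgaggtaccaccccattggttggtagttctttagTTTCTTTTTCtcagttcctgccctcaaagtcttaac
Trim30d (chr7:104507850-104508099, minus strand): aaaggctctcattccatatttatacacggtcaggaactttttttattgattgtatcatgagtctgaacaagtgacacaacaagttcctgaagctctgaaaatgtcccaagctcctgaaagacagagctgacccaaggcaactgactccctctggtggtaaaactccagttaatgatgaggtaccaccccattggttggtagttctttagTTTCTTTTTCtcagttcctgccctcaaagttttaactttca
Trim12c (chr7:104353350-104353599, minus strand): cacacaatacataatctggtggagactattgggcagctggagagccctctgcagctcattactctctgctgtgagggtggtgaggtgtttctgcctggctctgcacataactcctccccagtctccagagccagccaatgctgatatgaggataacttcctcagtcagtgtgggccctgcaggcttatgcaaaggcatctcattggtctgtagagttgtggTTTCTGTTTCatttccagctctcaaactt
Trim30c (chr7:104400779-104401028, minus strand): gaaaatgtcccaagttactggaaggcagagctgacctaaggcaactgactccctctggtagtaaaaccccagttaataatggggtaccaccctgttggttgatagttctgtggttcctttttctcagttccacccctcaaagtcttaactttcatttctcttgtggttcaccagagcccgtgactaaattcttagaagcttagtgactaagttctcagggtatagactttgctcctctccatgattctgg

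The response element core was present in 5 of the 7 members (Trim30a, Trim30d, Trim12a, Trim12c and Trim34a) and in 3.44% of 32851 promoters of the same length. In Trim30a the match lay at bases -36 to -27 from the start and in Trim30d at -41 to -32, and their promoters were 93.6% identical over 295 aligned bases. Those of Trim12a and Trim12c were 95% identical over 260, so the matches of each pair lie in shared sequence. Trim30b and Trim30c had no match to the response element core in this window. For Trim30b the RefSeq window was chr7:104358597-104358896 on the minus strand, which lies inside the gene as annotated here. That gene begins at 104369884 on this strand, and the sequence before that start was not searched. Trim30c alone had a match to the STAT site core, which 8.3% of promoters hold. A match is a description of the letters and does not show that a factor binds.

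Because Trim genes are known interferon targets, interferon genes were set beside them. In UN-SCC679 sh3, where Trim30a was 30.1-fold higher, the interferon-induced antiviral genes were divided. Of 35 tested, 13 were called higher (7 of them by at least 2-fold) and 11 lower (1 by at least 2-fold). Over all genes tested, 31.8% were called higher and 32.0% lower, the shares beside which the list counts of this comparison stand. The median log2 fold change of the 35 antiviral genes was 0.02, against 0.01 over all genes tested. Among the antiviral genes, those called at 2-fold or more were mostly higher, as were those over all genes tested (1147 of 1471). The 7 of 35 antiviral genes higher by at least 2-fold stand beside 8.04% of all 14271 genes tested, a smaller share. Rsad2, the antiviral enzyme viperin, had a log2 fold change of 3.18, at 0.49 ± 0.0368 TPM in sh3 and 0.102 ± 0.103 TPM in empty TPLKO. Ifit3b had a log2 fold change of 2.33, at 2.01 ± 0.0624 TPM in sh3 and 0.404 ± 0.101 TPM in empty TPLKO. These 2 were named after their values were seen, and both were low in both arms. Bst2, the tether of budding virions, fell to 92.6 ± 3.17 CPM in sh3, against 207 ± 3.6 CPM in empty TPLKO (edgeR adjusted p = 1.94e-11), and Ifi27 fell to 75.2 ± 1.26 CPM, against 111 ± 2.33 CPM (adjusted p = 5.09e-09). Of 16 interferon-gamma-induced GTPase and antigen processing genes, 7 were higher (1 by at least 2-fold) and 5 lower (1 by at least 2-fold). Among those higher, Iigp1 had a log2 fold change of 3.04 and Psmb9 of 0.94. Among those lower, Tgtp1 had -1.03. Iigp1, Psmb9 and Tgtp1 were named after their values were seen. Irgm1, an immunity-related GTPase, fell to 65.1 ± 2.03 CPM in sh3, against 99.9 ± 2.24 CPM in empty TPLKO (adjusted p = 7.59e-09). Of 15 interferon receptor and JAK-STAT genes, 9 were higher and 4 lower. Socs3, a feedback inhibitor of JAK kinases, rose to 15.1 ± 0.542 CPM, against 6.69 ± 0.452 CPM (adjusted p = 5.62e-08), while the transcription factor Irf1 fell to 70.2 ± 3.14 CPM, against 99.1 ± 0.731 CPM (adjusted p = 8.8e-08; SD, n = 3 each).

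In LLC sh3, 6 of 27 antiviral genes tested were called higher and 10 lower, with a median log2 fold change of 0.12, against 0.01 over all genes tested. Over all genes tested in LLC, 36.2% were called higher and 36.4% lower. Here Bst2 rose to 24.4 ± 0.363 CPM in sh3, against 10.9 ± 1.34 CPM in empty TPLKO (edgeR adjusted p = 9.97e-09), and Ifit2 to 27.7 ± 0.908 CPM, against 17.1 ± 0.237 CPM (adjusted p = 9.08e-09). Among the genes called lower, Cmpk2 had a log2 fold change of -2.39 and Rsad2 of -1.53, both under 0.5 TPM as group means and named after their values were seen. Of 13 interferon-gamma-induced genes, 7 were higher (6 of them by at least 2-fold) and 2 lower (1 by at least 2-fold), with a median of 0.53. Calls at least 2-fold higher made up 8.07% of all genes tested. Tap1, a subunit of the peptide transporter of antigen presentation, rose to 13.9 ± 1.05 CPM in sh3, against 4 ± 0.193 CPM in empty TPLKO (adjusted p = 6.72e-10; SD, n = 3 each). The GTPase gene Gbp2, also named after its values were seen, was called lower, with a log2 fold change of -2.21 and 0.343 ± 0.0831 TPM in sh3 against 1.42 ± 0.111 TPM in empty TPLKO. In the JAK-STAT list 7 of 15 were higher and 4 lower, among them Stat2 at 27.5 ± 1.16 CPM in sh3 and 11 ± 0.412 CPM in empty TPLKO (adjusted p = 1.38e-10).

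In OE_DSTYKwt, 15 of 35 antiviral genes were called higher and 6 lower (median log2 fold change 0.12, against 0.00 over all genes tested). Over all genes tested here, 14.6% were called higher and 15.2% lower. The antiviral genes called higher were all under 2-fold. Dhx58, a cytoplasmic RNA sensor of the RIG-I family, rose to 12.6 ± 0.445 CPM, against 8.15 ± 0.0577 CPM in empty pLENTI6 (edgeR adjusted p = 1.95e-05). Rsad2 fell to 0.0709 ± 0.0423 CPM, against 1.71 ± 0.204 CPM (adjusted p = 7.46e-06). Of 16 interferon-gamma-induced genes 3 were called, all higher, and of 15 JAK-STAT genes 4 were higher and 2 lower. Among those higher was the JAK kinase gene Tyk2, at 47.1 ± 0.276 CPM in OE_DSTYKwt and 40.5 ± 1.06 CPM in empty pLENTI6 (edgeR adjusted p = 0.000634, SD, n = 3 each).

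Trim30a is known to act on the TAK1 complex, so the Toll-like receptor, TAK1 and NF-kB genes were counted as well. Of 30 tested, 11 were higher and 15 lower in LLC sh3, 14 higher and 7 lower in UN-SCC679 sh3, and 4 higher and 9 lower in OE_DSTYKwt. Over all genes tested, 36.2% were higher and 36.4% lower in LLC sh3, and 31.8% and 32.0% in UN-SCC679 sh3. In OE_DSTYKwt these shares were 14.6% and 15.2%. Map3k7, which encodes TAK1, fell to 86.2 ± 1.59 CPM in LLC sh3, against 120 ± 0.653 CPM in LLC empty TPLKO (edgeR adjusted p = 7.34e-10). The receptor Tlr2 rose to 68.8 ± 2.03 CPM in UN-SCC679 sh3, against 42.6 ± 1.67 CPM in UN-SCC679 empty TPLKO (adjusted p = 1.32e-08). Nfkbie, an inhibitor of NF-kB, rose to 13.5 ± 0.501 CPM in UN-SCC679 sh3, against 6.91 ± 0.317 CPM in empty TPLKO (adjusted p = 2.1e-07), and fell to 15.1 ± 0.304 CPM in OE_DSTYKwt, against 20 ± 0.333 CPM in empty pLENTI6 (adjusted p = 0.000107; SD, n = 3 each).

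**Figure D3:**
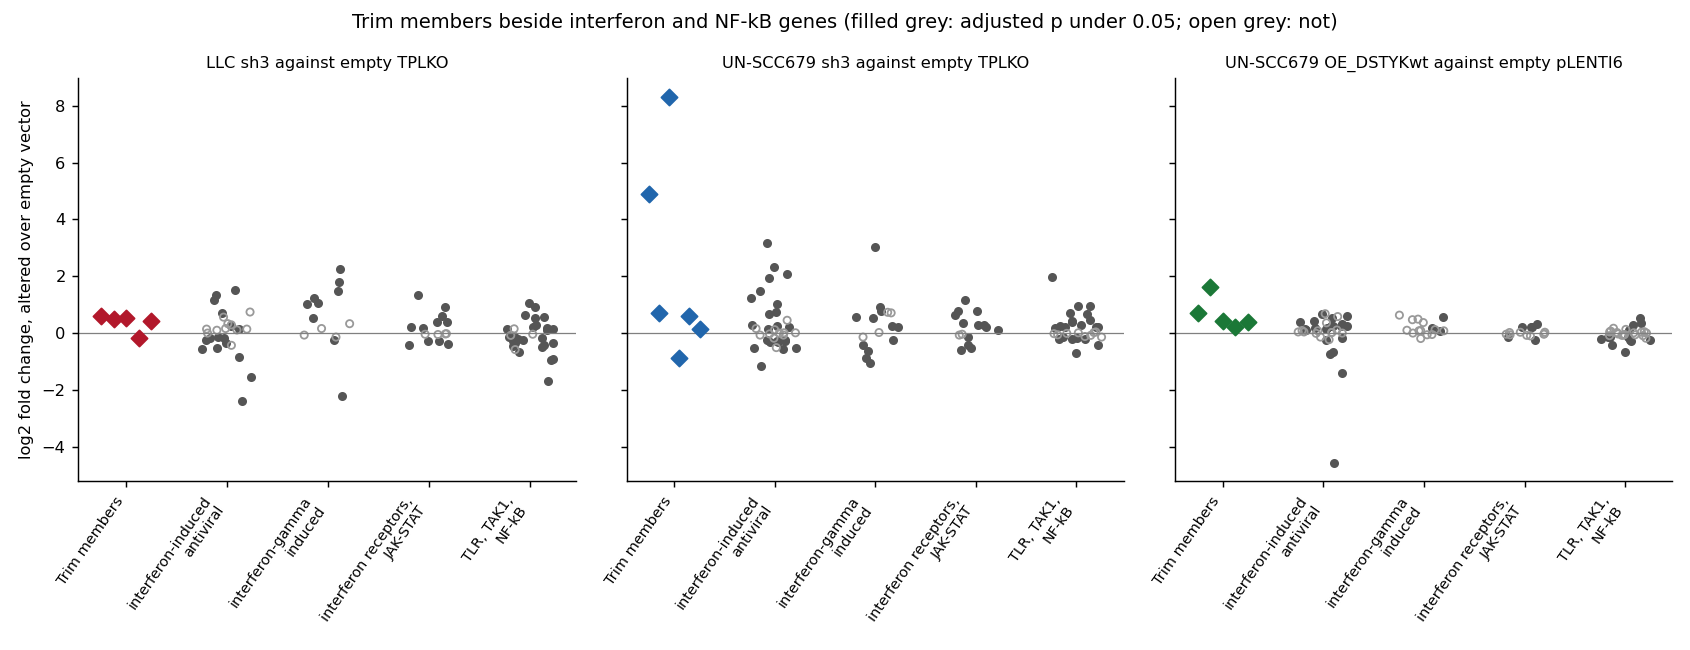
Log2 fold change (altered arm over its empty vector, vertical axis) of the Trim members that passed the filter (diamonds, Trim30d in UN-SCC679 sh3 at its lower bound) and of 4 gene lists (circles, 1 per gene; filled where the adjusted p is under 0.05), in the 3 comparisons. In UN-SCC679 sh3 the antiviral list is spread on both sides of 0 around a median of 0.02.

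The other Trim genes outside the 7 were counted in the same way, beside the same shares over all genes tested. Of 40 tested in UN-SCC679 sh3, 12 were called higher and 11 lower by edgeR, all by less than 2-fold, while 10.3% of all genes tested were called at 2-fold or more (8.04% higher). Trim2 was at 94.4 ± 1.09 CPM in sh3 and 53.6 ± 1.78 CPM in empty TPLKO (adjusted p = 6.13e-10). In OE_DSTYKwt 8 of 42 were higher and 6 lower, all by less than 2-fold (2.54% of all genes tested were called at 2-fold or more, 0.816% higher), with Trim44 at 8.71 ± 0.122 CPM in OE_DSTYKwt and 17.3 ± 0.923 CPM in empty pLENTI6 (adjusted p = 1.8e-06). In LLC sh3 19 of 42 were higher, 6 of them by at least 2-fold, and 12 lower, where 12.2% of all genes tested changed by at least 2-fold (8.07% higher). Trim54, a muscle TRIM protein, was 12.8-fold higher in LLC sh3 (5.21 ± 0.156 CPM, against 0.407 ± 0.072 CPM in empty TPLKO, adjusted p = 7.45e-10). Trim28, a corepressor of KRAB zinc finger proteins, fell to 312 ± 3.8 CPM in LLC sh3, against 510 ± 3.46 CPM in empty TPLKO (adjusted p = 5.22e-13; SD, n = 3 each).

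Of the protein-coding genes within 1 Mb of the members, 6 of 22 tested were called by edgeR in UN-SCC679 sh3, all higher and 4 of them by at least 2-fold, while 31.8% of all genes tested were called higher and 8.04% by at least 2-fold. In LLC sh3 5 of 21 were higher and 2 lower, against 36.2% and 36.4% of all genes tested. In OE_DSTYKwt 1 of 23 was called, higher, against 14.6% of all genes tested. The 4 in UN-SCC679 sh3 were Usp17le, Usp17la, Usp17lb and the olfactory receptor gene Olfr646. Usp17le, of a multicopy deubiquitinase family whose reads may be split, averaged 3.35 ± 0.334 CPM in UN-SCC679 sh3 and 0.125 ± 0.0679 CPM in empty TPLKO (adjusted p = 1.02e-07). It was also higher in LLC sh3, at 3.28 ± 0.0263 CPM against 0.218 ± 0.0863 CPM in LLC empty TPLKO (adjusted p = 2.18e-08; SD, n = 3 each). Within the cluster, Trim34b and Trim5 gave no call in either UN-SCC679 comparison. Trim6 was called in LLC sh3, at 3.37 ± 0.293 CPM against 2.2 ± 0.0963 CPM in empty TPLKO (adjusted p = 0.00155).

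Markers of other cells are given beside these results, and their part in them was not tested. Over 8 leukocyte markers, the summed level ran from 10.5 to 12.8 TPM in UN-SCC679 sh3 and from 8.56 to 10.3 TPM in empty TPLKO, from 10.4 to 10.7 TPM in LLC sh3 and from 9.76 to 12.4 TPM in LLC empty TPLKO, and from 24.1 to 25.4 TPM in OE_DSTYKwt and from 22.6 to 24.1 TPM in empty pLENTI6. The macrophage marker Adgre1 was under 3 counts in each of the 6 groups. The pan-leukocyte gene Ptprc averaged 0.026 ± 0.03 TPM in UN-SCC679 sh3 and 0.0591 ± 0.0289 TPM in empty TPLKO (SD, n = 3 each). The macrophage receptor gene Csf1r was 3.23-fold higher in UN-SCC679 sh3, at 1.29 ± 0.23 TPM against 0.462 ± 0.134 TPM in empty TPLKO (edgeR adjusted p = 3.86e-05). Over 4 fibroblast markers the sum ran from 408 to 420 TPM in UN-SCC679 sh3 and from 231 to 234 TPM in empty TPLKO, with all 4 called higher. It ran from 25.6 to 26.5 TPM in LLC sh3 and from 17.7 to 19.4 TPM in LLC empty TPLKO, where 2 were called higher and 2 lower (Pdgfra 2.02-fold higher, Pdgfrb 2.47-fold lower), and from 68.4 to 68.6 TPM in OE_DSTYKwt and from 49.3 to 56.7 TPM in empty pLENTI6. Over 4 squamous markers it was 49 to 52.4 TPM in UN-SCC679 sh3 and 31.8 to 37.3 TPM in empty TPLKO, 64.1 to 66 TPM in OE_DSTYKwt and 68 to 73.6 TPM in empty pLENTI6, and at most 0.102 TPM in LLC. In UN-SCC679 sh3, 2 of the 3 squamous markers tested were called higher (Trp63 by 6.13-fold and Krt14 by 4.58-fold) and 0 lower. In OE_DSTYKwt, 2 of the 3 squamous markers tested were called higher (Trp63 by 2.19-fold) and Sox2, the most abundant, lower. Over 6 lung epithelial markers it was 378 to 392 TPM in UN-SCC679 sh3 and 582 to 608 TPM in empty TPLKO, 794 to 831 TPM in OE_DSTYKwt and 959 to 994 TPM in empty pLENTI6, and 40 to 41.9 TPM in LLC sh3 and 39.1 to 44.2 TPM in LLC empty TPLKO. In UN-SCC679 sh3, the epithelial markers Krt8 and Krt18 were called 1.54-fold and 1.74-fold lower, and both were called lower in OE_DSTYKwt too. In LLC 2 of the 6 epithelial markers passed the filter on low counts, and Krt8 was called lower. Krt8 was low in both arms, at 0.0664 ± 0.039 CPM in LLC sh3 and 0.603 ± 0.139 CPM in LLC empty TPLKO (SD, n = 3 each). The defining markers Krt5 (squamous) and Epcam (epithelial) were each under 3 counts in 5 of the 6 groups. Over 4 endothelial markers the sum was at most 1.08 TPM. Beside these marker calls, 31.8% of all genes tested were called higher and 32.0% lower in UN-SCC679 sh3. The shares were 36.2% and 36.4% in LLC sh3, and 14.6% and 15.2% in OE_DSTYKwt.

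Genes whose log2 CPM ran most like a member's over the 18 libraries were named from 11451 genes by Pearson's r, as a description, because the libraries share line, strain and experiment. For Trim30a these were Col6a1 (r = 0.973), a collagen chain, Iqgap2 (r = 0.963) and Ick (r = 0.949). For Trim30d they were the complement component C3 (r = 0.988), Osgin1 (r = 0.986) and Tcf7l1 (r = 0.982). For Trim12a they were Bdp1 (r = 0.981), Larp4 (r = 0.974) and Cdc42bpa (r = 0.971), for Trim12c Nr3c2 and Pcdhb7 (r = 0.997 each) and Cobl (r = 0.996), and for Trim34a Stx17, Casp1 and Fbxo7 (r = 0.979 each). Between members, r was 0.732 for Trim30a with Trim30d, 0.964 for Trim12c with Trim34a and -0.945 for Trim12a with Trim12c, where the points split by line. Trim30b and Trim30c were under the level needed.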

How the data were processed

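RNA of 18 libraries was read for 75 bases after a stranded mRNA kit, per the labels' protocols, which name single-end and paired-end runs. The submitters' processing notes name kallisto, sleuth and mm10 without a version. The deposited values are the authors' estimated counts per transcript, which share a read among transcripts it fits equally, and effective and full transcript lengths (other units, deposited). Strand use in counting is not given in the sources used here.

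Of 118489 transcripts, 116816 matched GENCODE M21 (GRCm38). The 1673 others, with 0.515% to 0.593% of the counts of a library, were left out. Transcripts of a gene were added up and the sums rounded to whole numbers. Each altered arm was compared with its own empty vector in 6 libraries with edgeR 4.0.16 (R 4.3.3): TMM, the default filter (minimum count 10, total 15), the quasi-likelihood test and Benjamini-Hochberg adjustment over all genes tested. A gene is called at an adjusted p under 0.05. SE is the log2 fold change over the square root of F. TPM was computed from estimated counts and effective lengths. The procedure was tested on simulated data. Coding and promoter sequences were aligned with MAFFT 7.526 from GENCODE M21 transcripts and RefSeq GRCm38.p6 promoters, which were searched for motifs in Python 3.11.15.

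Groups come from titles, since the phenotype label is the same for both arms. The members, the gene lists and the rule for named genes were chosen with earlier results of these data known. The rule takes the 7 members, Dstyk, the 2 called genes per list that had the lowest adjusted p, neighbours and other Trim genes called at 2-fold, and the 3 genes most like each member averaging log2 CPM 1 or more (pseudocount 0.5). Not all are named, and some results are not reported here. DESeq2 1.42.0, limma 3.58.1 (log2(TPM + 1)), library size scaling, other filters, a length offset, a fit of all libraries, leaving out each library, and a replicate block were tried. Protein-coding transcripts alone were added after the values were seen.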

Additional observations from a re-analysis of the deposited data

How the results depend on the processing

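Trim30a and Trim30d in LLC, and Trim30a in OE_DSTYKwt, kept direction and call under every alternative run. In LLC, Trim12a had a log2 fold change of -0.40 (adjusted p = 0.355) over protein-coding transcripts, which leaves out its retained-intron transcript, and an adjusted p of 0.0992 in the fit of all 18 libraries. Its adjusted p ran from 3.44e-05 to 0.355 over all settings. In OE_DSTYKwt, genes called lower numbered 2118, and 1242 with limma on log2(TPM + 1), for which the cause was not tested. Trim34a there passed with library size scaling (adjusted p = 0.046), a 1 CPM filter (0.0408) and limma (0.0438). Leaving out a library gave 9644 to 9848 genes called in LLC (4728 to 4854 higher, 4864 to 4994 lower), 8531 to 8838 in UN-SCC679 sh3 (4198 to 4421 higher, 4333 to 4426 lower) and 2887 to 4936 in OE_DSTYKwt (1427 to 2432 higher, 1460 to 2504 lower). Members called higher numbered 3 in every such LLC fit and 2 to 4 in OE_DSTYKwt, and 0 were called lower by edgeR (0 at an unadjusted p under 0.05, and 0 by DESeq2). In UN-SCC679 sh3, the log2 difference of Trim30a was 4.90, and 4.65 with a length offset and 3.57 on log2(TPM + 1), which compresses low values. For Trim12a there, whose arms overlap, -0.85 became -0.18 with a length offset, -1.46 without sh3 replicate 3 and -0.35 without empty TPLKO replicate 1. No pairing by replicate number was assumed. Same-number correlations ran from -0.16 to 0.129, and in LLC the same-numbered library had the highest correlation for replicates 2 and 3. With 3 libraries per arm these values cannot decide whether the samples are paired. With a replicate block, 9925 genes were called in LLC, 8806 in UN-SCC679 sh3 and 3771 in OE_DSTYKwt, against 9995, 9112 and 4154 without it, and 3 members were called higher and 0 lower in LLC and in OE_DSTYKwt. At these depths Trim30b and Trim30c, at 25.8 counts or fewer in a library, are too low for a difference to be read.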
